A study of Mus musculus with 9 samples.

Results

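Taar8a, Taar8b, Taar8c and Taar9 are the olfactory receptor genes at one end of the mouse Taar cluster. They were taken by gene symbol and form 4 of the 24421 genes with raw counts. Their levels were followed in the main olfactory epithelium (MOE), the nasal tissue that holds the olfactory sensory neurons (OSNs), in a mouse line that lacks TAAR enhancer 2, an element of the same cluster that lies in the interval from Taar6 to Taar7a. The 9 mRNA libraries came from whole MOE at postnatal day 14, with 3 from wild-type (WT) mice, 3 from heterozygous (het) mice carrying 1 deleted copy (TAAR enhancer 2 +/-) and 3 from homozygous (homo) mice carrying none intact (TAAR enhancer 2 -/-). According to the methods the genotypes were littermates, the deletion was made with CRISPR-Cas9 in C57BL/6J zygotes, and a single established line was used. No transgene or other allele is named for any group. The labels do not say whether each library was 1 animal or a pool, and they give no sex, so that p-values measure the spread between these libraries. The paper's legend gives n = 3 mice, and its methods state that both sexes were used. Its reporting summary places the mouse lines on mixed backgrounds of C57BL/6J and another strain.

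Trace amine-associated receptors (TAARs) are G protein-coupled receptors that detect volatile amines. Like the larger family of odorant receptors, they are chosen so that an OSN expresses mostly a single receptor gene, and TAAR neurons lie mainly in the dorsal part of the epithelium. An enhancer is a stretch of DNA that binds transcription factors and raises transcription of genes at a distance, and several receptor enhancers are known to bind LHX2, EBF factors and LDB1. In bulk tissue, fewer cells that express a receptor and less receptor RNA per cell cannot be told apart.

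In the GRCm38 (mm10) annotation of GENCODE M21, all 4 genes are protein-coding genes of 1 exon on chromosome 10. Taar8a runs from 24076500 to 24077534 on the plus strand. Taar8b (24091260 to 24092294), Taar8c (24100878 to 24101912) and Taar9 (24108488 to 24109534) lie on the minus strand. The annotated lengths, 1035 bases for each Taar8 gene and 1047 for Taar9, are coding lengths, because no untranslated part is annotated. Gaps of 13.7 kb, 8.58 kb and 6.58 kb separate the neighbours in this order. The gene starts lie 87.5 kb (Taar8a), 103 kb (Taar8b), 113 kb (Taar8c) and 120.5 kb (Taar9) from the middle of the interval between Taar6 and Taar7a, which runs from 23985647 to 23992404 and holds the element. No other olfactory Taar gene lies farther from it than Taar9. The next gene outward, Stx7, starts 39.8 kb past Taar9.

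The 3 Taar8 genes are close copies. Their coding sequences differ at 40 of 1035 positions, and identity is 96.6% between Taar8a and Taar8b, 97.5% between Taar8b and Taar8c and 98.1% between Taar8a and Taar8c. Taar8b differs alone at 20 positions, Taar8a at 14 and Taar8c at 5. The 60 bases in which the copies differ most hold 11 of these positions. They are shown because a read can be told apart only where it covers such bases. The capitals mark the bases that differ among the copies, at coding positions 964 to 1023 (GRCm38, in the sense of the gene, from the GENCODE M21 transcripts):
Taar8a (chr10:24077463-24077522, plus strand): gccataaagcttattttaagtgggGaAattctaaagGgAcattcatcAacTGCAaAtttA
Taar8b (chr10:24091272-24091331, minus strand): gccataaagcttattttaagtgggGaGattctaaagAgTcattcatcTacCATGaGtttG
Taar8c (chr10:24100890-24100949, minus strand): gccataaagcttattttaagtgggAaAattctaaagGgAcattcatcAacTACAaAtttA

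Taar9 stands apart in sequence, with 69.4% to 70.7% identity to the copies, below the 79.0% to 79.8% between Taar6 and the copies. The stretch of Taar9 that aligns with the 60 bases above (coding positions 961 to 1020) differs from Taar8b at 22 bases, here in capitals:
Taar9 (chr10:24108515-24108574, minus strand): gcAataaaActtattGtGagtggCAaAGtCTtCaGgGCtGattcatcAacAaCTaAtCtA

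The longest run without any difference among the 3 copies is 126 bases (coding positions 708 to 833). A read that falls inside it carries no base that assigns it to Taar8a, Taar8b or Taar8c. It lies at chr10:24077207-24077332 in Taar8a, chr10:24091462-24091587 in Taar8b and chr10:24101080-24101205 in Taar8c:
Shared run: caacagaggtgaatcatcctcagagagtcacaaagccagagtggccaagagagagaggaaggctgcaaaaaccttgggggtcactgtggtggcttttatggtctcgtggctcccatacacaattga

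How much of each gene is its own was measured with sliding windows of transcript sequence. Of the 50-base windows, 49.1% in Taar8a, 43.6% in Taar8b and 27.5% in Taar8c occur in no other gene. At 150 bases the shares are 73.7%, 95.8% and 69.5%. Taar9 reaches 100% at 50, 100 and 150 bases. The treatment of reads that map to several genes is not stated in the sources used here, and its part in the low counts of the Taar8 copies was not tested. The sum of the 3 copies is therefore given beside each copy; it too lacks any read that was discarded for mapping to several genes.

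**Figure D1:**
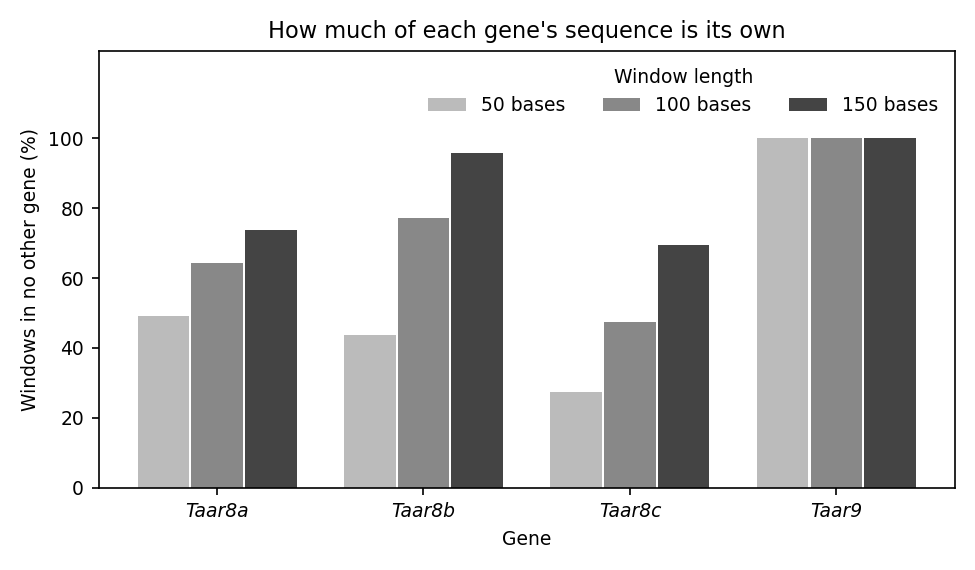
Share of 50-, 100- and 150-base windows of each coding sequence (y axis, %) that occur in no other annotated transcript, by gene (x axis). Taar9 stands at 100% at each length, and Taar8c is the lowest of the 4 genes, from 27.5% to 69.5%.

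Total counts per library ranged from 20527992 to 32262005, so that 3 counts, used as the floor, correspond to 0.0928 to 0.147 CPM (counts over TMM-scaled library sizes). The summed level of 7 markers of mature OSNs ran from 6120 to 6596 CPM in the WT libraries, from 6272 to 6663 in the het and from 6289 to 7209 in the homo libraries, and that of 2 dorsal zone markers was 467 to 530, 492 to 541 and 508 to 582 CPM. Secretory gland markers varied most, from 2809 to 13126 CPM over the libraries, and their part in the results below was not tested. All 4 adult globin genes were listed at 0 in every library while Alas2, an erythroid gene, stood at 14.7 to 27.6 CPM. These globin genes are also close copies, and whether the counting of copies set these zeros was not tested.

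The levels were low in WT. Per kilobase of coding sequence, Taar9 stood at 2.76 ± 0.705 CPM per kb (SD, n = 3), the 7th of the 13 olfactory Taar genes of 1 exon. It overlapped its neighbours in this order, Taar7f above and Taar4 below. The Taar8 genes took the last 3 places, with counts divided by the full coding length although the copies share sequence. The part of the shared sequence in these places was not tested. Taar8b was at 0.968 ± 0.353 CPM per kb, and its libraries overlapped those of Taar3 above it but not those of Taar8a. Taar8a at 0.319 ± 0.137 and Taar8c at 0.192 ± 0.0804 CPM per kb overlapped each other. In het, the last 3 places again belonged to Taar8b, Taar8a and Taar8c, at 0.445, 0.163 and 0.117 CPM per kb, and Taar9 was 8th at 1.99. In homo, Taar9 was again 8th at 0.259 ± 0.0833 CPM per kb, where it overlapped Taar5, and Taar8b was 10th at 0.178 ± 0.0925.

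The first comparison asked what the loss of both copies of the element does to the genes at this end of the cluster. Taar9, the most abundant of the 4 genes, fell to 9.37% of WT in homo and passed the test over all genes. Taar8b stood at 18.4% of WT, and Taar8a and Taar8c had no count in any homo library, but none of the 3 Taar8 genes passed. All 4 genes were lower in every homo library than in every WT library, which held for 2.71% of all genes tested.

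Taar9 had 43, 97 and 97 raw counts in WT replicates 1, 2 and 3, or 2.11, 2.9996 and 3.57 CPM. The homo libraries had 5, 6 and 10 counts, or 0.227, 0.215 and 0.372 CPM. The highest homo library thus lay far below the lowest WT library, and the 3 WT libraries differed by more than the homo libraries did in CPM. The normalized counts deposited by the authors were 53.3, 76.1 and 90.3 in WT and 5.70, 5.42 and 9.36 in homo, in the same order of genotypes. The mean level fell from 2.89 ± 0.738 CPM to 0.271 ± 0.0872 CPM (SD, n = 3). The fitted log2 fold change was −3.41 (SE 0.34, 95% interval −4.18 to −2.65), and the edgeR quasi-likelihood test gave an adjusted p of 0.0203 (Benjamini-Hochberg over 19775 genes). With the threshold of an adjusted p under 0.05 and a fold change over 1.5, Taar9 was 1 of the 4 genes called lower among all genes tested (0.0202%), and 1 of the 4 members. No gene was called higher.

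The direction of Taar9 was stable and its call was not. The log2 fold change lay between −3.71 and −3.25 under all 19 alternatives. When single libraries were left out the adjusted p ranged from 0.0249 to 0.211, and among these fits Taar9 stayed past the threshold only without WT replicate 1 or without het replicate 1. The adjusted p was 0.118 without WT replicate 2, 0.0788 without WT replicate 3, 0.0604 without het replicate 2, 0.0565 without het replicate 3, 0.140 without homo replicate 1, 0.211 without homo replicate 2 and 0.0928 without homo replicate 3. It was also above the threshold with limma-voom (adjusted p 0.120) and in a fit of the 2 genotypes alone (edgeR adjusted p 0.1498), and it was 2.18e-10 with DESeq2.

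Taar8b, the most counted copy, had 26, 19 and 31 raw counts in WT (1.28, 0.588 and 1.14 CPM). It had 5, 7 and 2 counts in homo (0.227, 0.251 and 0.0743 CPM). The genotypes did not overlap, and WT replicate 2 came nearest to the homo libraries. The mean was 1.002 ± 0.365 CPM in WT and 0.184 ± 0.0958 CPM in homo, with a log2 fold change of −2.44 (SE 0.62, 95% interval −3.83 to −1.05), an unadjusted edgeR p of 0.00304 and an adjusted p of 1.

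Taar8a had 10, 9 and 6 raw counts in WT (0.491, 0.278 and 0.221 CPM) and 0 in each homo library. Against the floor of 3 counts per library, its mean of 0.330 ± 0.142 CPM in WT made it at least 2.79-fold lower in homo (unadjusted edgeR p 5.57e-04, adjusted p 1). Taar8c had 3, 5 and 8 counts in WT (0.147, 0.155 and 0.295 CPM) and 0 in homo, at least 1.68-fold lower (unadjusted edgeR p 0.00730, adjusted p 1). WT replicate 1 held no more Taar8c than the floor itself. With these counts the data give these lower bounds and not the size of the difference.

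Read against all genes, 536 of 19775 genes (2.71%) had every homo library below every WT library, as all 4 members did, and 528 genes (2.67%) were lower at an unadjusted p under 0.05. All 4 members were also among the latter. DESeq2 called Taar9 alone of the 4 members, with adjusted p-values of 0.437 for Taar8a, 0.754 for Taar8b and 1 for Taar8c. No alternative called a Taar8 copy.

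In WT the Taar8 copies together reached 39, 33 and 45 raw counts (1.91, 1.02 and 1.66 CPM). The het libraries held 10, 24 and 22 (0.473, 0.907 and 0.871 CPM), and the homo libraries 5, 7 and 2 (0.227, 0.251 and 0.0743 CPM). The 3 genotypes did not overlap, with every het library below every WT library and above every homo library. Of the single genes tested, 1.95% were lower without overlap in het against WT, 1.81% in homo against het and 2.71% in homo against WT. The share of genes in which all 3 genotypes separated was not computed. The separation of WT from het was small, from 1.02 CPM in WT replicate 2 to 0.907 in het replicate 2. The mean was 1.53 ± 0.460 CPM in WT, 0.750 ± 0.241 in het (49.0% of WT) and 0.184 ± 0.0958 in homo (12.02% of WT; SD, n = 3 each). The log2 ratio of the means was −3.06 for homo against WT, −1.03 for het against WT and −2.03 for homo against het, and in a fit with the summed row in the table the SEs were 0.51, 0.43 and 0.52. No p-value is given for this sum, because it was built from members chosen with results known.

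**Figure D2:**
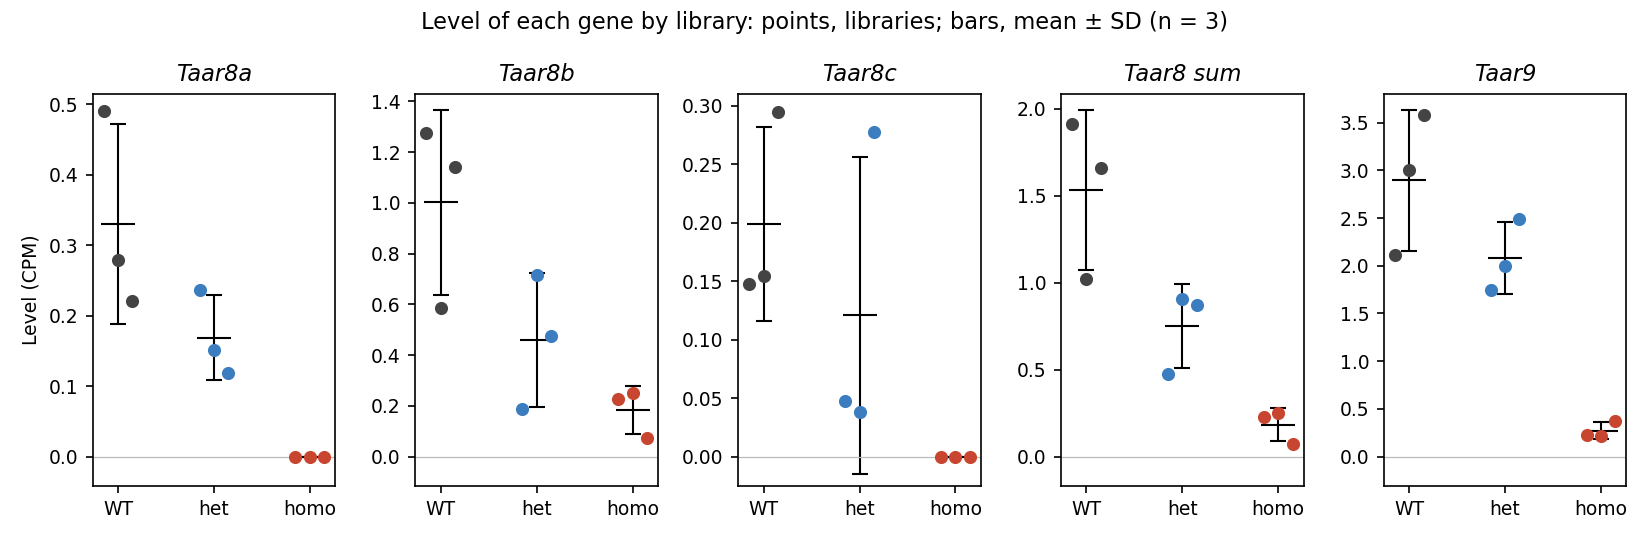
Level in CPM (linear y axes, a separate scale for each gene) of Taar8a, Taar8b, Taar8c, their sum and Taar9 in WT, het and homo. Points are libraries and bars are the mean ± SD (n = 3); the 3 homo libraries of Taar8a and Taar8c sit at 0, and those of Taar9 lie between 0.215 and 0.372 CPM.

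The levels were also compared within replicate numbers, with the libraries numbered 1 set apart because they shared their deviations most across genotypes (correlations of 0.682, 0.807 and 0.532 for the 3 pairs of genotypes). The homo level of Taar9 was 10.7% of WT among the libraries numbered 1 and 8.93% among those numbered 2 and 3. For the Taar8 sum these values were 11.8% and 12.1%. Taar9 and the Taar8 sum were thus lower in homo by a like amount in both sets of libraries.

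Which copy carried the remaining Taar8 counts was read from the shares. Taar8b held 76 of 117 Taar8 counts in WT, a share of 65.0% (exact Clopper-Pearson 95% interval 55.6% to 73.5%). Taar8a held 25, or 21.4% (14.3% to 29.9%), and Taar8c 16, or 13.7% (8.02% to 21.3%). The WT libraries kept the same leading copy, with Taar8b between 57.6% and 68.9% of the counts in each.

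In het, Taar8b held 35 of 56 Taar8 counts, or 62.5% (48.5% to 75.1%), Taar8a 12 and Taar8c 9. The het libraries varied more: Taar8b took 40% of 10 counts in het replicate 1, where Taar8a took 5 of the 10, and 79.2% of 24 counts in het replicate 2. In homo, all 14 Taar8 counts were assigned to Taar8b, a share of 100% (76.8% to 100%). For Taar8a and Taar8c, 0 of 14 counts allows a share of up to 21.4% each, and the WT shares of 21.4% and 13.7% do not exceed that limit. For these copies taken singly, a change in share was not detectable with these counts. For Taar8b the interval in homo lay above those in WT and het, so its share was higher in homo beyond counting error. The homo share rests on 14 counts over 3 libraries. The intervals and limits cover counting error only, not the spread between libraries or the assignment of reads among the copies.

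**Figure D3:**
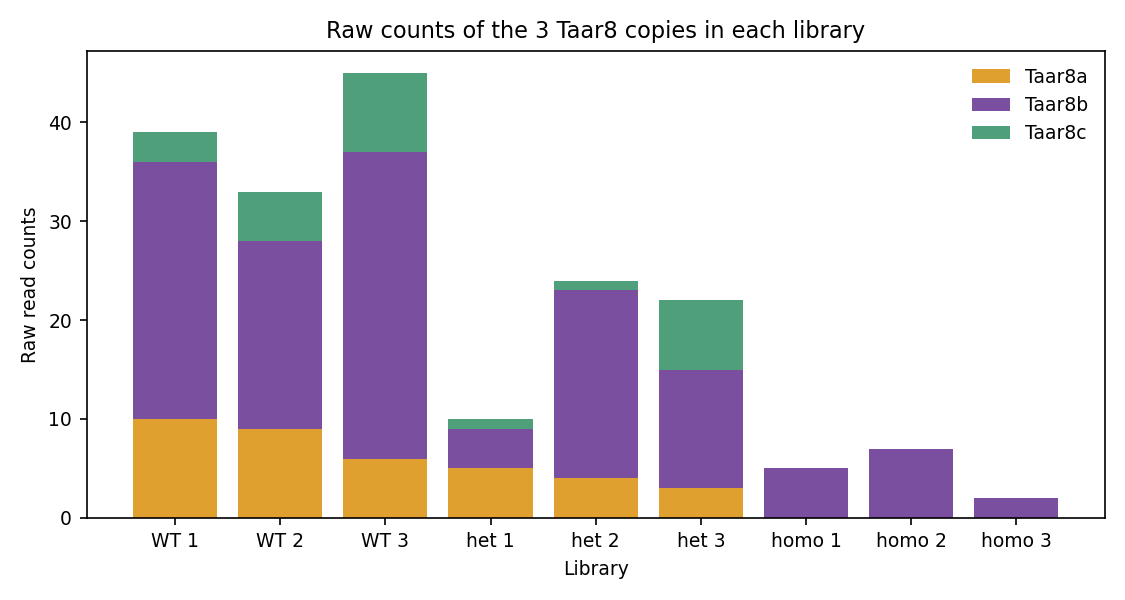
Raw read counts (y axis) of Taar8a, Taar8b and Taar8c stacked for each of the 9 libraries (x axis), not scaled for depth. The stacks hold 33 to 45 counts in WT, 10 to 24 in het and 2 to 7 in homo, where the only copy with counts is Taar8b.

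In het against WT, a single copy of the element remains. None of the 4 genes passed. Taar9 stood at 71.9% of WT in het, Taar8a at 51.2%, Taar8b at 46.0% and Taar8c at 60.7%, and for each gene the libraries of the genotypes overlapped. By edgeR 0 of 19775 genes were called lower (0%), 171 (0.865%) were lower at an unadjusted p under 0.05, and 385 (1.95%) were lower without overlap. In this fit, with genotype only and all 9 libraries, the members had 0 in each of these 3 classes, and 0 were called by DESeq2 or limma-voom. With single libraries left out, an unadjusted edgeR p under 0.05 arose only for Taar9 and Taar8b. It was 0.0498 for Taar9 without WT replicate 1. For Taar8b it was 0.0463 without WT replicate 2 and 0.0420 without het replicate 2.

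The het libraries had 37, 53 and 63 raw counts of Taar9, or 1.75, 2.00 and 2.50 CPM. The mean of 2.08 ± 0.379 CPM (SD, n = 3) gave a log2 fold change of −0.48 (SE 0.28, 95% interval −1.11 to 0.16, unadjusted edgeR p 0.124, adjusted p 0.99997) against WT. Het was lower than WT in all 3 pairs of the same number, although het replicate 3 lay above WT replicate 1. By the same check as below, the numbers may pair het with WT. With the replicate block the log2 fold change was −0.47, with an unadjusted edgeR p of 0.0466 and an adjusted p of 0.946. The interval without the block includes no difference; the unadjusted p with the block is under 0.05, and neither fit passed over all genes.

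Taar8b had 4, 19 and 12 raw counts in het (0.189, 0.718 and 0.475 CPM), a mean of 0.461 ± 0.265 CPM and a log2 fold change of −1.09 (SE 0.55, 95% interval −2.34 to 0.16, unadjusted edgeR p 0.0806) against WT. Het replicate 1 was lower than the other het libraries by more than 2-fold. Taar8a had 5, 4 and 3 counts (0.237, 0.151 and 0.119 CPM) with a log2 fold change of −0.96 (SE 0.61, 95% interval −2.39 to 0.48, unadjusted edgeR p 0.160). Taar8c had 1, 1 and 7 counts (0.0473, 0.0378 and 0.277 CPM) with a log2 fold change of −0.71 (SE 0.90, 95% interval −2.81 to 1.40, unadjusted edgeR p 0.453). For Taar8c the 7 counts of het replicate 3 are most of the het total of 9.

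The het level of the Taar8 sum differed between the sets of libraries. It was 24.7% of WT among the libraries numbered 1, with 1 library per genotype, and 66.4% among those numbered 2 and 3. The log2 ratio of −1.03 became −0.78 (58.1% of WT) without het replicate 1, −0.82 (56.7%) without WT replicate 1 and −1.25 (42.1%) without WT replicate 2, so that no single library decided it. For Taar9 the values by number were 83.0% and 68.4%. The ratio of Taar9 to Taar8 counts was 1.10, 2.94 and 2.16 in WT, 3.70, 2.21 and 2.86 in het and 1, 0.857 and 5 in homo, so that the genotypes overlapped widely.

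Homo was then compared directly with het. Taar9 had 0.271 ± 0.0872 CPM in homo and 2.08 ± 0.379 CPM in het, with no overlap and a log2 fold change of −2.94 (SE 0.34, 95% interval −3.71 to −2.17). The edgeR adjusted p of 0.0553 lay just above the threshold, and the unadjusted p was 9.38e-06. Judged from the correlation of same-numbered libraries, the replicate numbers may pair het with homo, a point that the check leaves unsettled. With the number as a block the log2 fold change of Taar9 was −2.96 and the edgeR adjusted p 0.0226, which passed. Taar9 also passed with DESeq2 (5.34e-07), with library totals (0.0487), with no filter on low counts (0.0464) and with a term for number 1 (0.0222), but in no fit that left out a library (0.0851 to 0.587).

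Taar8b overlapped between homo and het, since homo replicates 1 and 2 lay above het replicate 1. Its log2 fold change was −1.35 (SE 0.64, 95% interval −2.80 to 0.094, unadjusted edgeR p 0.0618). Among the libraries numbered 1 the homo level of Taar8b was 120% of het and among the others 27.3%. Taar8a (at least 1.43-fold lower, unadjusted edgeR p 0.00231) and Taar8c (unadjusted edgeR p 0.0181) had adjusted p-values of 1. For Taar8a, 2 het libraries lay above the floor of 3 counts and het replicate 3 held the floor itself. For Taar8c only 1 het library lay above this floor, so no bound is given for Taar8c. In the main fit (TMM, genotype only), 0 of the 4 members were called lower, where 1 gene of 19775 was called (0.00506%). Taar8a, Taar8c and Taar9 were lower at an unadjusted p under 0.05, as were 69 genes (0.349%), and these 3 were also without overlap, as were 357 genes (1.81%). For Taar8c this separation was 1 count against 0 in het replicates 1 and 2, which is under the floor. These comparisons share their het or WT libraries with those above.

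The spread of the libraries was set against counting error, to show how far the low counts limit these values. The ratio of the variance between libraries to that expected from counting was 4.22 for Taar9 in WT, 1.62 in het and 0.736 in homo. For Taar8b it was 3.89 in WT, 3.42 in het and 1.34 in homo. Counting alone gives a ratio near 1 on average, but each ratio rests on 3 libraries and is imprecise. The homo ratios lay near 1, and the WT ratios of both genes and that of Taar8b in het lay above it. With 3 libraries these ratios cannot settle whether a group varied by counting alone.

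The other olfactory Taar genes showed how the end of the cluster compares with the rest of it. Their 10 levels summed to 35.9 ± 4.70 CPM (WT), 32.3 ± 2.57 CPM (het) and 19.95 ± 2.58 CPM (homo), so that het stood at 89.98% and homo at 55.6% of WT. This sum mixes unlike genes. In homo, Taar7b, Taar7d and Taar7e stood at 104%, 107% and 81.1% of WT, and Taar6 and Taar5 at 10.2% and 10.8%. Taar2, Taar4, Taar7a and Taar7f lay between 19.7% and 74.9%, and Taar3 is given below as a bound. The 4 members together stood at 4.43 ± 0.700, 2.83 ± 0.575 and 0.455 ± 0.0103 CPM, or 64.0% and 10.3% of WT. The homo SD of 0.0103 rests on 10, 13 and 12 counts, while Taar9 alone had an SD of 0.0872 and the Taar8 sum 0.0958 CPM. It is thus not a measure of precision. In homo against WT, 3 of the 10 were called lower and 0 higher, 7 were without overlap and lower, and the median log2 fold change was −1.02, where that of all genes tested was 0.0040. The 3 were Taar6 and Taar7a, which flank the element, and Taar3. The fitted change was −3.29 for Taar6 (SE 0.18; edgeR adjusted p 3.22e-04) and −2.34 for Taar7a (SE 0.25; edgeR adjusted p 0.0233), and Taar3 was at least 13.4-fold lower (edgeR adjusted p 0.0203).

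Distance from the element did not order the changes. Between Taar7a and the Taar8 genes lie Taar7b, with the smallest change of the list (0.05, SE 0.26), Taar7d with the highest value (0.10, SE 0.24), and Taar7f, the neighbour of Taar8a at 25.9 kb, with −1.18 (SE 0.34, unadjusted edgeR p 0.00762, adjusted p 1). Taar9, farther out than all of these, had a larger fall than Taar7a in the fitted value, a difference that was not tested. Past Taar9, the log2 fold change was −0.04 (SE 0.11, edgeR adjusted p 1) for Stx7, a syntaxin of membrane fusion, and 0.02 (SE 0.13, edgeR adjusted p 1) for Moxd1, a monooxygenase-like gene. In het against WT, 0 of the 10 other Taar genes were called and their median was −0.10. Of these 10, 8 were lower and 2 higher. Taar5 at 61.3% and Taar6 at 72.9% of WT were lower without overlap, which no member was in this comparison. In homo against het 1 was called (Taar6) and the median was −0.91.

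**Figure D4:**
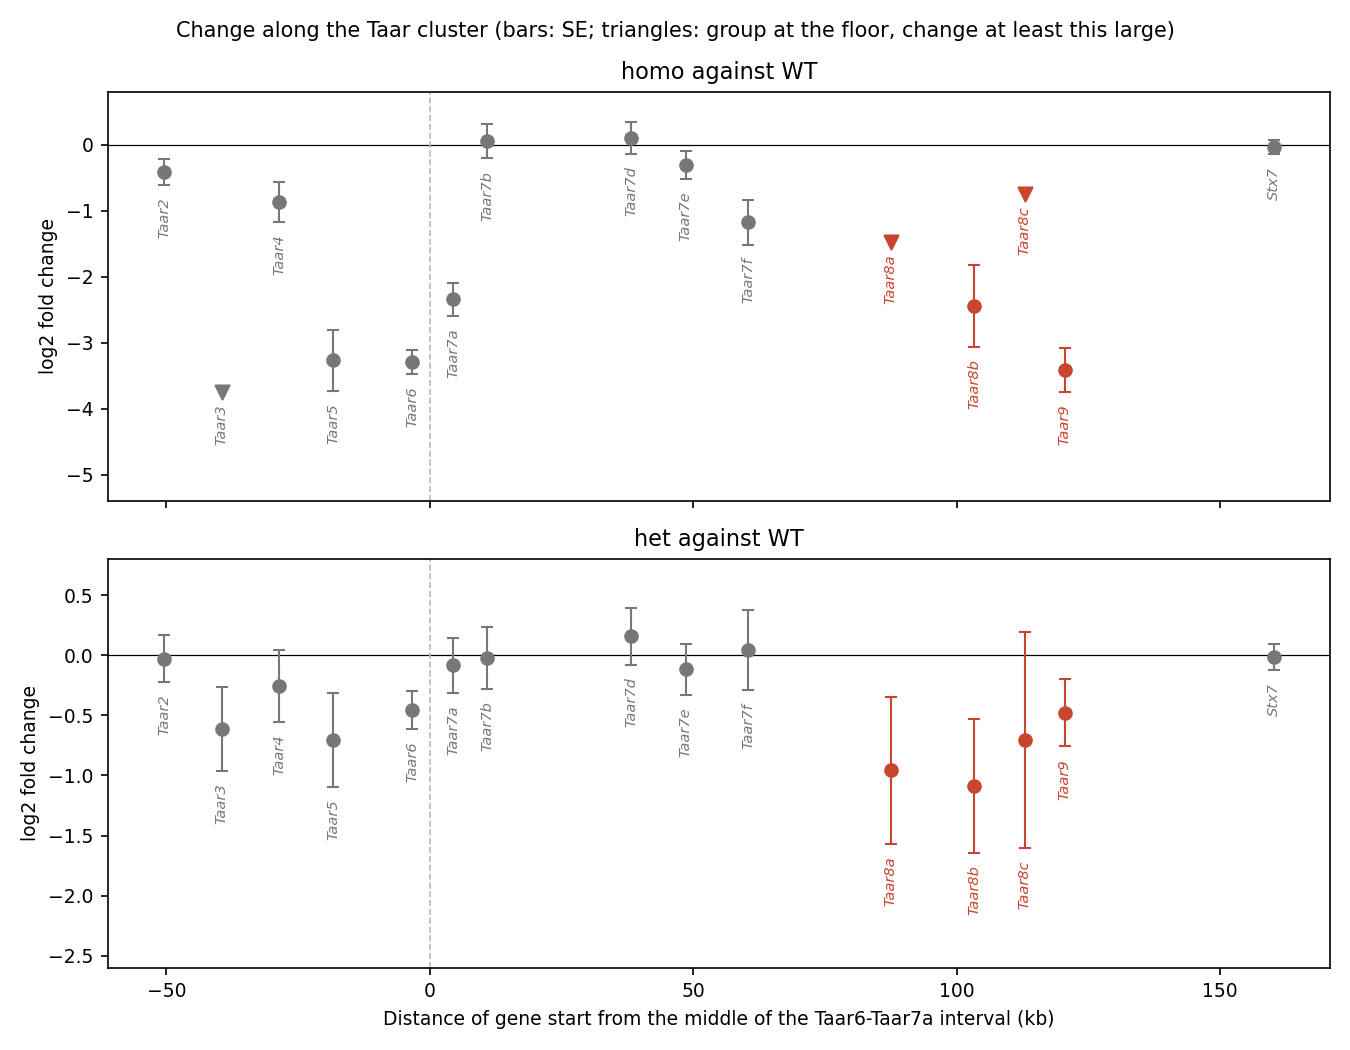
Log2 fold change (y axis) of the 14 olfactory Taar genes and of Stx7 against the distance of the gene start from the middle of the Taar6 to Taar7a interval (x axis, kb; dashed line at 0), for homo against WT (top) and het against WT (bottom). Circles are fitted values with SE bars and triangles are bounds for genes whose homo libraries were all at or under 3 counts; the members, in red, all lie below 0 in both panels, and Stx7 lies near 0.

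As a share of the counts of all 14 olfactory Taar genes, which does not depend on the depth of the library, the 4 members made up 11.6%, 9.66% and 11.7% in WT. They made up 6.94%, 8.28% and 8.79% in het and 2.58%, 2.06% and 2.13% in homo. The genotypes did not overlap, and the means were 10.99 ± 1.15%, 8.004 ± 0.954% and 2.25 ± 0.282% (SD, n = 3). No such share was computed for other sets of genes. Between het and WT the Wilson intervals of the single libraries overlapped, with 7.16% to 10.7% for het replicate 3 and 8.19% to 11.4% for WT replicate 2. Taar9 alone went from 7.09 ± 0.951% in WT to 5.89 ± 0.551% in het and 1.34 ± 0.414% in homo, and the Taar8 copies from 3.89 ± 1.54% to 2.11 ± 0.570% and 0.917 ± 0.495%.

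**Figure D5:**
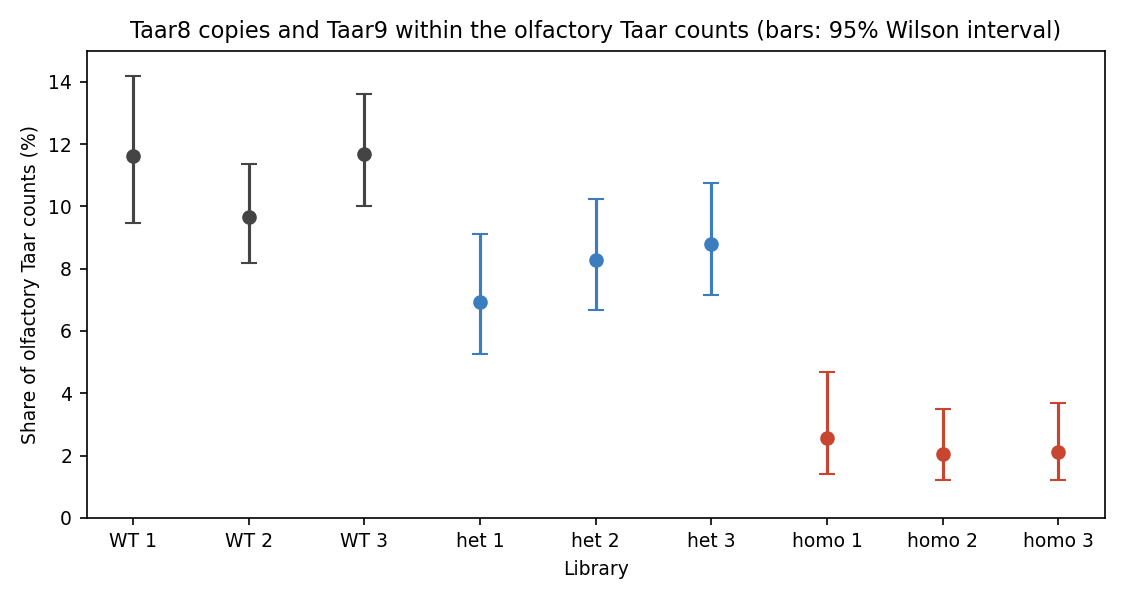
Counts of Taar8a, Taar8b, Taar8c and Taar9 as a percentage of the counts of all 14 olfactory Taar genes (y axis) in each library (x axis); bars are 95% Wilson intervals, which cover counting error only. The WT libraries lie between 9.66% and 11.7%, het between 6.94% and 8.79% and homo between 2.06% and 2.58%.

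The genes whose pattern over the 9 libraries was most like that of Taar9 were found by Pearson correlation of log2(CPM + 0.5) among 16155 genes with a mean of at least 1 CPM. They were Taar6 (r = 0.981), Taar5 (0.960), Ttc16 (0.959), Taar7a (0.958) and Neurl2 (0.955). Taar7b and Taar7d had an r of 0.067 and 0.059. For the Taar8 sum they were Dsc2 (0.943), Ttc16 (0.937), Taar5 (0.923), Abhd17b (0.911) and Taar6 (0.887). The points share their libraries and fall into genotypes, and with 9 points among so many genes such values also arise for genes with small differences. Ttc16 had a mean of 29.7 CPM in WT and 23.0 in homo, and Dsc2 66.7 and 57.1.

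Genes of the pathway downstream of the receptors were compared to place the members in their cells. Of 11 genes of OSN signalling and receptor export, among them Gnal (the olfactory G protein subunit), Adcy3 (its adenylyl cyclase), Cnga2 (a subunit of the cyclic nucleotide-gated channel) and Rtp1 (which brings receptors to the membrane), 0 were called in homo against WT. Their log2 fold changes ran from 0.03 (Cnga4) to 0.19 (Gng13), with a median of 0.09. Of the 7 genes of enhancer-binding factors (Lhx2, Ldb1, Ebf1, Ebf2, Ebf3, Ebf4 and Emx2) 0 were called, with values from 0.02 (Ldb1) to 0.13 (Ebf1) and a median of 0.07.

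The sequence before the genes was searched for 2 motifs on both strands, TAATTA, the core bound by LHX2-type homeodomains, and CCCNNGGG, an EBF-type motif. RefSeq windows (GRCm38.p6) from 250 bases before to 50 after the gene start were at hand for Taar8b and Taar9, where the annotated start is the start codon. The window of Taar8b holds TAATTA, 148 bases before the start, in a stretch shown with the motif in capitals:
Taar8b (chr10:24092425-24092454, minus strand): ttaatttctttaTAATTAaaatagaaaaag

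The window of Taar9 holds neither motif, and neither window holds CCCNNGGG. Of all 32851 windows, 5.29% hold TAATTA and 13.7% hold CCCNNGGG. A match describes the letters only, and binding was not measured.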

How the data were processed

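Reads from directional, polyA-selected libraries were, per the submitters' processing notes and the methods, trimmed with Trimmomatic 0.36, mapped to mm10 with HISAT2 2.1.0 and counted per gene symbol with featureCounts of Subread 1.6.2. The authors deposited raw counts (24421 genes) and a second signal, counts divided by DESeq2 1.20.0 size factors (23129 genes). The gene annotation, the strand setting and the handling of reads with several matches are not given in the sources used here.

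Raw counts were tested here in R 4.3.3 with the edgeR 4.0.16 quasi-likelihood test (TMM, genotype only, all 9 libraries, 2-sided) on genes with at least 10 summed counts, which left 19775 genes and all 4 members. The p-values were adjusted by Benjamini-Hochberg over all of these, and genes were called at an adjusted p under 0.05 and a fold change over 1.5. CPM used TMM effective library sizes. The common dispersion was 0.0545. Bounds used a floor of 3 counts per library, which covers counting error only, as reads here carry no molecular identifiers. They took the mean of the other genotype as measured. The test was tried on simulated data with known changes. These were set only in genes with more counts than any Taar8 copy, so the trial does not cover those copies.

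Labels give replicate numbers without explaining them, so pairing was judged by the correlation of same-numbered libraries' deviations from their group means over 16156 genes. Between WT and het it was 0.682, 0.457 and 0.586 (numbers 1, 2 and 3). Between het and homo it was 0.807, 0.360 and 0.195. WT with homo gave 0.532, 0.320 and −0.085. All had to exceed 0.1, which held for het with WT and for het with homo, but not for WT with homo. Numbers that pair het with both would also pair WT with homo, so the check leaves the pairing unsettled. Differently numbered libraries were not compared. Alternatives were DESeq2 1.42.0, limma-voom (limma 3.58.1), other scaling and filters, the replicate block, a term for number 1, the 2 genotypes alone, and each library left out.

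The members, gene lists and tests were chosen with earlier results of these data known. The genes named are the 4 members, the 10 other olfactory Taar genes, Stx7 and Moxd1. Also named are the extremes of the signalling and factor lists and the 5 genes most correlated with Taar9 and with the Taar8 sum.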

Additional observations from a re-analysis of the deposited data

How the results depend on the processing

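Of 338 values computed under the alternatives, 310 kept sign and call or stayed within the spread, 14 were counts of called members that moved, 5 passed newly, 9 no longer passed and 0 changed sign. The 14 counts moved through the same 5 and 9 changes, all of Taar9. The Taar8 copies, and all members in het against WT, were called under no setting, so their values had no call to lose. In homo against WT, 10 of 19 alternatives called Taar9. The count of members called in homo against WT was 1 (Taar9). It was 0 with limma-voom and 0 in the fit of the 2 genotypes alone, and ranged from 0 to 1 when each library was left out. These last fits have fewer libraries; the cause of the limma-voom value was not tested. In homo against het the count of 0 became 1 (Taar9) with library totals, with no filter, with DESeq2 and with a term for number 1, and the replicate block also gave 1. The block changed no other call: in homo against WT the adjusted p of Taar9 was 0.00615 with it, and in het against WT the count was 0 under every alternative run. The Taar8 sum under the replicate block was −3.05, −0.99 and −2.06 for homo against WT, het against WT and homo against het. Without single libraries it ranged from −3.35 to −2.67, from −1.25 to −0.78 and from −2.33 to −1.65. The filterByExpr setting removed Taar8a and Taar8c, so that 2 of the 4 members were tested. The share of Taar8b among Taar8 counts without single libraries was 62.5% to 67.9% in WT, 50% to 67.6% in het and 100% in homo. The low counts limit the Taar8 copies most. With 0 to 31 counts per library, at most lower bounds can be given for the fall of Taar8a and Taar8c in homo. The parts of depth and of the handling of shared reads in these low counts were not tested.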
